A study of Mus musculus with 28 samples.

Results

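Collagen genes were taken as every gene in both count tables whose mouse symbol has the form Col, a number, a and a number. There were 44 such genes among 27179 gene identifiers. A gene was kept as a member in a table when its mean level there reached 0.5 CPM (CPM is the usual expression unit in which the reads of a gene are scaled to a common library size). This kept 35 genes among young and 40 among aged libraries, and all 35 of the young members were also aged members. By class, the young members were 7 of 11 fibrillar, 6 of 6 basement membrane type IV, 4 of 6 type VI and 18 of 21 other collagens. The aged members were 10, 6, 5 and 19 of the same classes. All members of both tables passed the filter on low counts and were tested.

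RNA came from the choroid plexus of the lateral ventricle of 28 male mice, 1 library per mouse, in 7 groups of 4. Young mice were wild-type C57/BL6 animals aged 3 to 4 months and formed batch 1. They were sampled in mid light phase at zeitgeber time (ZT) 6 (young day), at ZT 6 after 6 h of sleep disruption (young sleep-disrupted), or in mid dark phase at ZT 18 (young night). Aged mice of 12 to 14 months formed batch 2 and were J20+ or their J20- wild-type littermates, each sampled at ZT 6 (day) and ZT 18 (night). J20 mice carry a mutant human amyloid precursor protein transgene under the platelet-derived growth factor B promoter, which is active mainly in neurons. All mice were anaesthetised and perfused with saline. Age and batch are the same split and cannot be told apart, so the 2 tables were fitted separately.

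Collagens are trimers of alpha chains wound into a triple helix, and most are secreted into the extracellular matrix. Fibrillar chains such as Col1a1, Col1a2 and Col3a1 build the tension-bearing fibrils of connective tissue. Type IV chains build the network of basement membranes, and type VI chains build beaded microfilaments near cells. The choroid plexus is a sheet of cuboidal epithelium over a basement membrane, with a stroma of fibroblasts and fenestrated capillaries beneath it.

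Depth ran from 14632089 to 43885898 counts per library. Transthyretin, the carrier that marks choroid epithelium, had a mean of 5309 CPM in the young and 8888 CPM in the aged table. Marker genes of each cell type were averaged on the log2 CPM scale into a score. The choroid epithelium score was 10.1 to 10.3 in young libraries but 9.07 to 10.5 in aged ones. The neural score, from neuron, oligodendrocyte and astrocyte markers, ran from 0.98 to 6.49 in the aged table and reached 5.52 to 6.49 in J20- night libraries 1, 2 and 4. A pair of aged libraries stood apart: J20+ day library 1 had the highest stromal score of that table (3.88, others at most 2.98), and J20+ night library 2 had the lowest epithelium score (9.07). How log2 counts changed with GC content also differed between libraries, from -0.27 to 0.43 log2 units per 10% GC in aged and from -0.41 to 0.28 in young libraries. In bulk tissue, fewer cells of a type and less RNA per cell cannot be told apart.

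The collagens with the most RNA per length of transcript were not the classical stromal ones. On the scale of CPM per kb of exon, Col8a1 led the young table at 188.9 ± 24.8 (SD, n = 12), followed by Col9a3 at 76.1 ± 6.97 and Col8a2 at 63.8 ± 8.36. Col9a3 led the aged table at 692.5 ± 252 (n = 16), before Col8a2 at 138.9 ± 52.2 and Col8a1 at 131.6 ± 78.9. These 3 genes held 83.02% ± 1.06 of the summed collagen level per kb in the young libraries and 82.4% ± 2.26 in the aged ones. Fibrillar chains together held 2.91% ± 0.48 in the young and 4.51% ± 1.38 in the aged table, and type VI chains 0.20% ± 0.04 and 0.55% ± 0.42. Type IV chains held 9.35% ± 0.51 and 7.03% ± 1.00. The fibrillar and type VI chains, which are typical fibroblast products, made up a small share of the collagen RNA of this tissue. Most of it belonged to chains outside the classical stromal set.

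**Figure D1:**
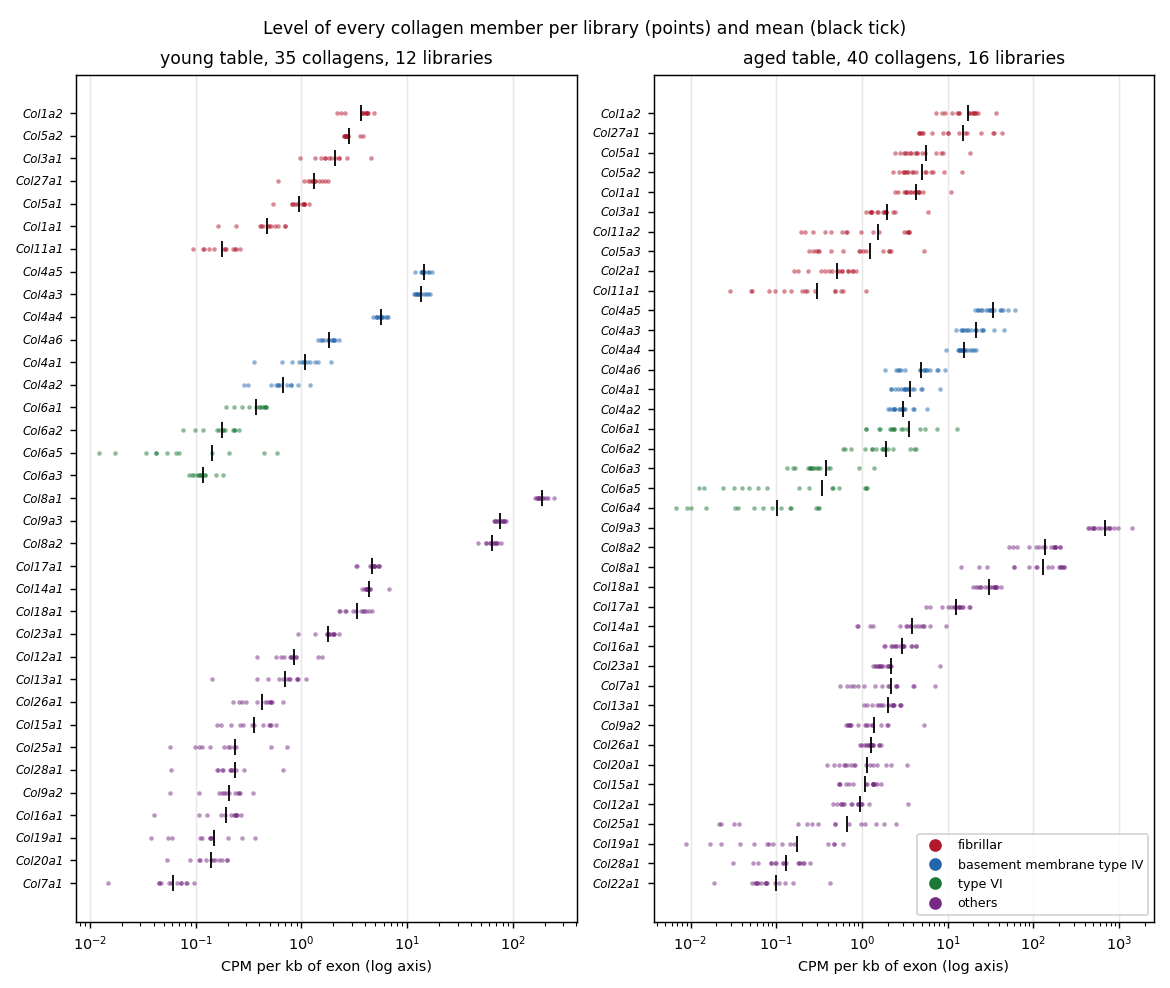
Level of every collagen member in CPM per kb of exon (log axis), 35 genes in 12 young libraries on the left and 40 genes in 16 aged libraries on the right, coloured by class. Points are libraries and black ticks are means. The means of Col8a1, Col8a2 and Col9a3 lie above those of all other members in both tables, and the values of 0 in 1 library each of Col6a4 and Col19a1 are not drawn.

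Type VIII collagen is a short-chain collagen that forms hexagonal lattices, best known from the membrane under the corneal endothelium and from vessel walls. Its chains are Col8a1 (Entrez 12837, chr16:57624256-57754737, minus strand, mm10) and Col8a2 (Entrez 329941, chr4:126286794-126314330, plus strand). The bases upstream of their start sites are shown because both chains were among the 3 leading collagens and varied together across the aged libraries. They are RefSeq sequences of GRCm38.p6, 5′ to 3′ on the strand of the gene, from 250 bases upstream to the last base before the first annotated exon, and capitals mark the GC box GGGCGG or its reverse complement CCGCCC.
Col8a1 (chr16:57754738-57754987, minus strand): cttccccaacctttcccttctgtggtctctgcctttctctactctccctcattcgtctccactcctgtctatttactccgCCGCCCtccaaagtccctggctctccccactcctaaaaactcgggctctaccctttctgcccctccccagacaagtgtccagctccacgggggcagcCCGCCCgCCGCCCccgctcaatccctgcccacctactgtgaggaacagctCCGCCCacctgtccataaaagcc
Col8a2 (chr4:126286544-126286792, plus strand): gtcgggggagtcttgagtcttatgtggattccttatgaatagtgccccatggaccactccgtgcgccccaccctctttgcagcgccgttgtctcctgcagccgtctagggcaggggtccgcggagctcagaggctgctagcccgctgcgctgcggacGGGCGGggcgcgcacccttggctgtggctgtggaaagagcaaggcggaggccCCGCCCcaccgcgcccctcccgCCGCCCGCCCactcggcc
Each stretch held 4 GC boxes, and in Col8a2 the last 2 overlapped. The stretch of Col8a2 was 69.9% G or C and that of Col8a1 60.8%. Neither held the E-box CACGTG bound by CLOCK and BMAL1, the D-box TTATGTAA, the ROR element core TAGGTCA or the OTX2 core TAATCC on either strand. Of the 40 collagen members, 31 had a promoter entry. A GC box lay in the 250 bases upstream of 20 of these (64.5%), against 32.9% of 27025 genes with an entry. None of the 31 held the E-box, which 6.05% of all genes held. The 31 were kept for a mean level of 0.5 CPM or more, while the 27025 genes were taken whatever their level. Shares among other genes above that level were not counted.

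Col8a1 varied little among young libraries. It stood at 993, 902, 991 and 1266 CPM in the 4 young day libraries, at 1062, 908, 857 and 823 CPM in the sleep-disrupted ones and at 902, 866, 908 and 1103 CPM in the night ones. All 3 groups overlapped, and the highest young library was 1.54 times the lowest. Among aged libraries the highest was 15.9 times the lowest. Col8a1 measured 765, 558, 563 and 1182 CPM in J20- day libraries and 306, 120.1, 309 and 149 CPM in J20- night libraries, which did not overlap. J20+ day libraries held 463, 840.2, 1070.0 and 1119 CPM. J20+ night libraries held 1039, 74.3, 1178 and 1017 CPM, so that library 2 was the lowest of the whole table and the other 3 lay within or just above the J20+ day range.

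Col8a2 had a like pattern across the aged groups. It measured 698, 592, 565 and 771 CPM in J20- day and 383, 250.5, 471 and 281 CPM in J20- night libraries. J20+ day libraries held 510.4, 764, 800.1 and 882 CPM, and J20+ night libraries 764, 225, 885 and 786 CPM. Again only J20+ night library 2 among the J20+ libraries reached down to the J20- night range. Young libraries of Col8a2 stayed between 203 and 336 CPM over all 12 libraries. The ratio of Col8a1 to Col8a2 per kb was 3.05 ± 0.80 (SD, n = 12) in the young and 0.85 ± 0.30 (n = 16) in the aged table.

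Across the 16 aged libraries the log2 CPM of both type VIII chains correlated with r = 0.991 (rho = 0.956, permutation test, adjusted p = 8e-05 over 16 pairs and tables for both). Without the 2 libraries farthest from the median r was 0.985, and on deviations from group means it was 0.986. Across the 12 young libraries r was -0.69 (permutation test, adjusted p = 0.0179), with rho = -0.61 (adjusted p = 0.0653) and r = -0.80 on deviations from group means. The chains thus varied together among the aged libraries and in opposite directions among the young ones, where their range was small. The GC content used for Col8a1 was 46.8% and for Col8a2 59.1%. Young ratios of Col8a1 to Col8a2 per kb were highest in night library 4 (4.602), day library 4 (4.455) and sleep-disrupted library 1 (3.737). These had the lowest young GC trends (-0.409, -0.366 and -0.212). Ratios were lowest in night library 1 (2.275), sleep-disrupted library 4 (2.375) and night library 2 (2.399). These had the highest young trends (0.191, 0.279 and 0.277). The part of GC content in the young r was not tested.

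**Figure D2:**
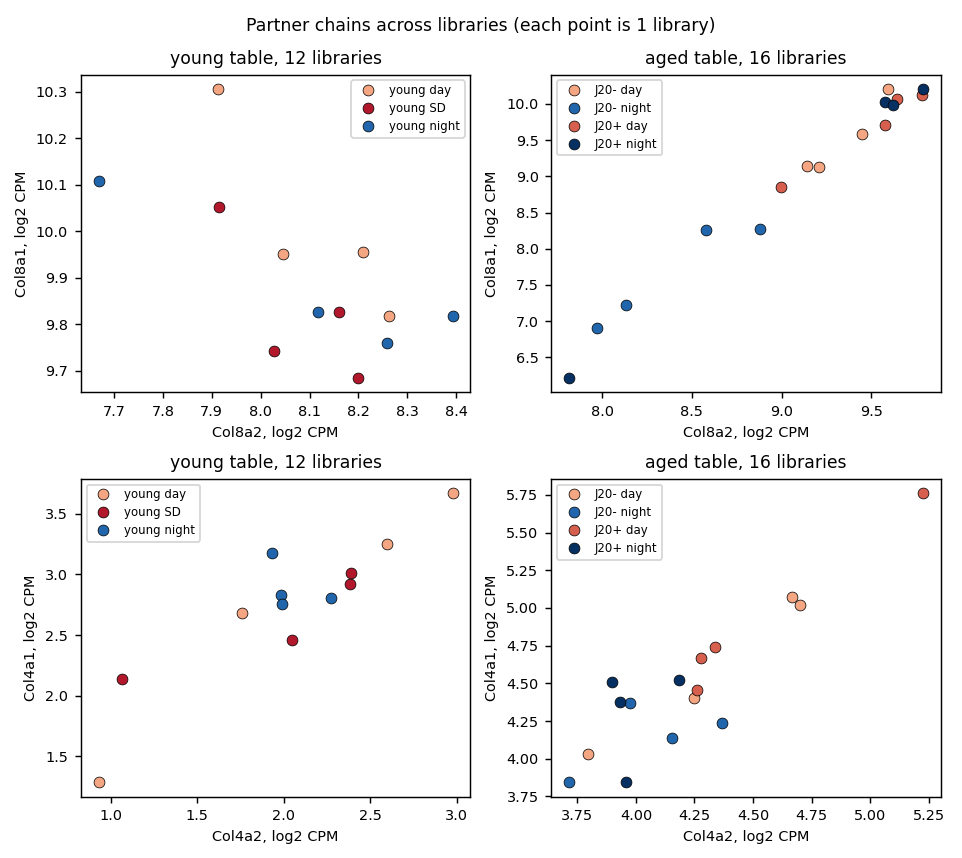
Log2 CPM of Col8a1 against Col8a2 (upper row) and of Col4a1 against Col4a2 (lower row), young table left and aged table right, each point 1 library coloured by group. Col8a1 and Col8a2 lie on a falling line in the young table (r = -0.69) and on a rising line in the aged table (r = 0.991), while the Col4a1 and Col4a2 pair rises in both.

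Type IX collagen sits on the surface of type II fibrils in cartilage and is known as a trimer of Col9a1, Col9a2 and Col9a3. In the choroid plexus Col9a3 (Entrez 12841, chr2:180598102-180622192) was abundant beside little RNA of its partners. It measured 200.8 to 261 CPM over the 12 young libraries, while Col9a2 measured 0.17 to 1.02 CPM and Col9a1 averaged 0.069 CPM, below the threshold. Aged libraries of Col9a3 averaged 2109 ± 768 CPM (SD, n = 16), Col9a2 4.04 ± 3.36 CPM and Col9a1 0.27 ± 0.35 CPM. Per kb of exon, the ratio of Col9a3 to Col9a2 averaged 459.6 in the young and 658.5 in the aged libraries. It ran from 193.5 to 1272 and from 84.8 to 1075, because Col9a2 was so low that small changes in it moved the ratio much. Levels of Col9a3 and Col9a2 showed no correlation that passed the threshold in either table (r = -0.09 and 0.036, permutation test, adjusted p = 0.902 and 0.941). Col2a1, the main cartilage fibril chain, averaged 0.19 CPM in the young and 2.60 CPM in the aged table.

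By group, Col9a3 stood at 222 ± 21.9 CPM in young day, 247 ± 13.8 in young sleep-disrupted and 227 ± 23.2 in young night libraries (SD, n = 4). Aged values were 2015 ± 413 CPM in J20- day, 2563 ± 372 in J20- night, 1586 ± 344 in J20+ day and 2273 ± 1355 in J20+ night libraries. In the last group library 2 had 4301 CPM and the other 3 had 1523 to 1722 CPM. In every pair of groups compared below, the Col9a3 values of both groups overlapped.

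Among type IV collagens, the chains of specialised basement membranes exceeded the ubiquitous ones. Col4a3, Col4a4 and Col4a5 form the network known from the kidney glomerulus, and Col4a1 and Col4a2 the network found in nearly all basement membranes. Among young libraries Col4a5 reached 14.4 ± 1.39, Col4a3 13.5 ± 1.64 and Col4a4 5.63 ± 0.55 CPM per kb (SD, n = 12). Col4a6 followed at 1.83 ± 0.24, Col4a1 at 1.08 ± 0.39 and Col4a2 at 0.67 ± 0.25 CPM per kb. The aged order was the same, with Col4a5 at 34.0 ± 11.4, Col4a3 at 21.6 ± 8.55, Col4a4 at 15.8 ± 2.96, Col4a6 at 4.89 ± 2.18, Col4a1 at 3.62 ± 1.48 and Col4a2 at 3.00 ± 0.94 CPM per kb (n = 16). Col4a3 and Col4a5 overlapped across libraries in both tables, and so did Col4a1 and Col4a2.

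The genes of each type IV pair lie head to head on 1 chromosome and are read in opposite directions. Col4a1 (chr8:11198423-11312889) and Col4a2 (chr8:11312805-11449287) have RefSeq start sites 21 bases apart with overlapping first exons, and Col4a3 and Col4a4 also overlap. Reads in an overlap cannot be told apart where the counting ignored strand, and the strand setting is not given in the sources used here. Col4a1 and Col4a2 correlated across libraries with r = 0.903 in the young and 0.902 in the aged table (permutation test, adjusted p = 0.000224 and 0.00016), with rho = 0.776 and 0.771. Without the 2 farthest libraries r was 0.795 and 0.772. Col4a3 and Col4a4 gave r = 0.794 and 0.714 (permutation test, adjusted p = 0.00344 and 0.00309), with rho = 0.658 and 0.482, and r = 0.721 and 0.499 without the 2 farthest libraries. For Col4a5 and Col4a6 on the X chromosome r was 0.285 in the young (adjusted p = 0.461) and 0.803 in the aged table (adjusted p = 0.00048, permutation test), with rho = 0.084 and 0.838. Without the 2 farthest libraries these were r = -0.04 and 0.770.

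J20+ day library 1 stood apart in several type IV chains, among them Col4a2. It measured 25.3, 25.9, 13.8 and 18.9 CPM in J20- day and 15.6, 20.6, 13.03 and 17.7 CPM in J20- night libraries. J20+ day libraries held 37.4, 19.1, 20.1 and 19.3 CPM and J20+ night libraries 14.8, 15.4, 18.1 and 15.2 CPM. J20+ day library 1 was the highest of all 16, and the J20+ night libraries lay below every J20+ day library. Col4a1 had 54.1 CPM in that same library against 21.9 to 26.7 CPM in the other J20+ day ones. Col4a4 went the other way, with 98.3 CPM there against 147 to 157 CPM.

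Of the fibrillar chains, Col1a2 had the highest level per kb in both tables, at 3.67 ± 0.84 (SD, n = 12) and 17.1 ± 7.14 CPM per kb (n = 16). Among young libraries Col5a2 (2.82 ± 0.43) and Col3a1 (2.07 ± 0.92 CPM per kb) came next. Among aged libraries Col27a1, a fibrillar chain known from cartilage, was second at 15.2 ± 12.4 and Col5a1, which helps nucleate type I fibrils, followed at 5.53 ± 3.92 CPM per kb. Type I collagen holds more Col1a1 than Col1a2 chains, and Col1a1 RNA was 0.13 ± 0.03 times Col1a2 per kb in the young and 0.26 ± 0.07 times in the aged libraries. No library of either table reached a ratio above 0.39. Both chains correlated with r = 0.807 in the young and 0.767 in the aged table (permutation test, adjusted p = 0.00487 and 0.00107). Here rho was 0.448 and 0.668. Without the 2 farthest libraries r was 0.275 and 0.764, so the young relation rested on those libraries. On deviations from group means, with all libraries kept, r was 0.779 in the young and 0.490 in the aged table (permutation test, adjusted p = 0.0392 and 0.135).

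Col1a2 (Entrez 12843, chr6:4505618-4541543) was followed through every library. It measured 25.98, 22.1, 11.6 and 13.9 CPM in young day, 12.7, 20.3, 22.3 and 20.5 CPM in sleep-disrupted and 22.8, 22.3, 21.7 and 19.8 CPM in young night libraries, with overlap throughout. J20- day libraries held 96.4, 73.0, 68.8 and 103.7 CPM and J20- night libraries 50.0, 39.3, 73.2 and 46.0 CPM. J20+ day libraries held 194.5, 113.9, 122.9 and 113.0 CPM, above every J20- day library. J20+ night libraries held 104.8, 60.7, 109.1 and 94.4 CPM, below every J20+ day library.

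Type VI chains were low. Col6a1, a core chain with Col6a2 and Col6a3, led at 0.37 ± 0.09 CPM per kb in the young (SD, n = 12) and 3.55 ± 3.03 CPM per kb in the aged table (n = 16). Col6a2 had 0.18 ± 0.06 and 1.92 ± 1.15 CPM per kb. Col6a1 and Col6a2 correlated with r = 0.867 and 0.904 (permutation test, adjusted p = 0.00146 and 0.000107), with rho = 0.552 and 0.903. Without the 2 farthest libraries r was 0.571 and 0.863. Col6a5, an alternative to the Col6a3 chain, varied most of this class. It measured 4.16, 0.61, 5.52 and 1.93 CPM in young day, 1.34, 0.11, 0.39 and 0.50 CPM in sleep-disrupted and 0.16, 0.39, 0.64 and 0.32 CPM in young night libraries. J20- day libraries held 0.58, 0.13, 2.25 and 0.45 CPM, and J20- night libraries 10.3, 10.1, 4.22 and 10.7 CPM with no overlap. The J20+ libraries held 4.30, 1.73, 0.22 and 0.30 CPM at day and 0.73, 5.03, 0.37 and 0.12 CPM at night, again with overlap.

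After the leading 3, the other collagens outside these classes were led in the young table by Col17a1, a hemidesmosome protein of epithelia, and Col14a1, which decorates fibrils, at 4.69 ± 0.70 and 4.40 ± 0.77 CPM per kb (SD, n = 12). Col18a1, a basement membrane collagen and source of endostatin, was the first of them in the aged table at 30.7 ± 6.70 CPM per kb (n = 16). Col14a1 measured 31.6, 21.7, 21.3 and 40.1 CPM in J20- day and 8.03, 5.81, 17.9 and 8.70 CPM in J20- night libraries. J20+ day libraries held 23.8, 34.0, 62.6 and 29.1 CPM and J20+ night libraries 33.2, 5.71, 23.98 and 26.7 CPM. As for type VIII, the J20- night libraries and J20+ night library 2 were the lowest of the aged table. Young libraries stayed at 24.2 to 28.95 CPM except for young day library 1 at 43.7 CPM. Col18a1 had 230 ± 23.97 CPM in J20- day and 161 ± 16.4 in J20- night libraries, and 217 ± 54.8 and 226 ± 48.9 CPM in J20+ day and night ones (SD, n = 4).

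Some genes stood near the threshold of 0.5 CPM. Just above it in the young table were Col7a1 at 0.57, Col9a2 at 0.60 and Col19a1 at 0.66 CPM. Just below were Col10a1 at 0.34, Col5a3 at 0.28 and Col2a1 at 0.19 CPM. Among aged libraries Col28a1 at 0.56, Col6a4 at 0.76 and Col19a1 at 0.77 CPM were just inside, and Col24a1 at 0.48, Col10a1 at 0.39 and Col6a6 at 0.28 CPM just outside. The other genes left out were Col9a1 in both tables, and Col11a2, Col24a1, Col6a4, Col6a6 and Col22a1 in the young table.

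**Figure D3:**
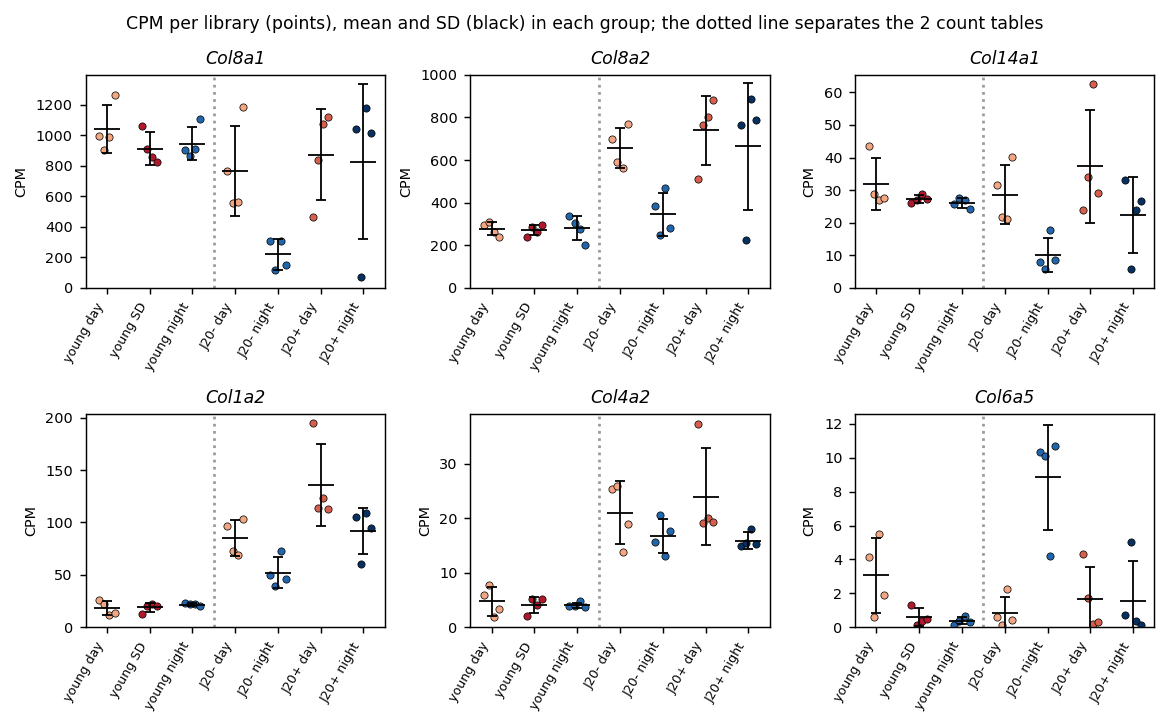
CPM of Col8a1, Col8a2, Col14a1, Col1a2, Col4a2 and Col6a5 in each library (points), with mean and SD (black), in the 7 groups of 4. Among the aged groups the first 3 genes are low in J20- night and in 1 J20+ night library, and the mean of Col6a5 is highest in J20- night (8.86 CPM).

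The comparisons asked whether time of day, sleep disruption or the J20 transgene moved collagen RNA. Changes were tested with edgeR's quasi-likelihood test, and a gene was called at a Benjamini-Hochberg adjusted p under 0.05 over all tested genes. No collagen member was called in any of the 8 comparisons. Few genes of any kind were called, and the share of all tested genes is given with each comparison. Log2 fold changes below carry their standard error and rest on 4 libraries per group.

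In young night against young day, 0 of 35 members were called, beside 40 of 14983 tested genes (0.267%). An unadjusted p under 0.05 was found for 3 members and for 1407 of all tested genes. The members' median log2 fold change was 0.17 with 28 of 35 above 0, and the median over all genes was 0.02 with 53.9% above 0. Over 20 alternatives the members' median ran from 0.042 to 0.254. Without young day library 3 it was 0.045 with 21 of 35 above 0. Without young night library 4 it was 0.073 with 22 above 0, and after GC correction 0.042 with 21. Col6a5 was lowest at -2.98 ± 0.73 (edgeR adjusted p = 0.165). Col27a1 had 0.53 ± 0.21 (0.461) and Col5a1 0.40 ± 0.17 (adjusted p = 0.489). By class, the median was 0.37 for fibrillar, 0.01 for type IV, 0.25 for type VI and 0.18 for other collagens. No member had groups without overlap in either direction, against 1.97% of all genes higher and 2.72% lower at night (4.69% in all). DESeq2 called Col6a5, beside 1.70% of all genes. limma-voom called Col6a5 as lower and Col5a1, Col27a1 and Col18a1 as higher, beside 18.7% of all genes.

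In young sleep-disrupted against young day, 0 of 35 members were called, beside 0 of 14983 genes (0%), of which 359 had an unadjusted p under 0.05. DESeq2 and limma-voom called no member here either. The members' median was -0.03 with 17 of 35 above 0, against 0.004 over all genes. No member had groups without overlap, against 0.968% of genes higher and 1.00% lower (1.97% in all). Col6a5 had -2.36 ± 0.70, Col15a1, a basement membrane zone collagen of vessels and muscle, -0.86 ± 0.33, and Col9a3 0.15 ± 0.09 (edgeR adjusted p = 0.861 for all 3). Col15a1 measured 3.08, 3.46, 0.96 and 2.64 CPM in young day and 1.04, 1.29, 1.68 and 1.57 CPM in sleep-disrupted libraries, and 3 of the 4 day libraries lay above all 4 others.

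In young night against young sleep-disrupted, 0 of 35 members were called, beside 57 of 14983 genes (0.380%). An unadjusted p under 0.05 was found for 2 members and for 1454 of all tested genes. The median was 0.14 with 27 of 35 above 0, against 0.01 over all genes. Over 20 alternatives the members' median ran from 0.057, with the stromal score as a covariate (19 of 35 above 0), to 0.174. Col15a1 had 0.87 ± 0.33 (edgeR adjusted p = 0.387), Col3a1, the type III fibril chain, 0.73 ± 0.33 (0.506) and Col12a1, which decorates fibrils under tension, 0.58 ± 0.34 (adjusted p = 0.677). Night libraries of Col15a1 held 2.14, 2.06, 3.05 and 3.00 CPM, all above the sleep-disrupted ones. Col5a1 and Col15a1 were the 2 members whose groups did not overlap, both higher at night (5.71% of members), against 3.65% of all genes. No member was lower without overlap, against 4.18% of all genes (7.83% in either direction). The 3 young comparisons share groups, so their values are not independent. Young night library 4 had the highest Col3a1 value, 25.6 CPM against 9.20 to 12.6 CPM in the other night libraries. Its arachnoid and meningeal fibroblast score was 4.45 against 2.62 to 2.72 in the others, and the part of this in the result was not tested. Without that library Col3a1 had 0.33 ± 0.26 and Col15a1 0.79 ± 0.35.

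In J20- night against J20- day, 0 of 40 members were called, beside 2 of 16065 tested genes (0.0124%). Here 8 members and 5002 genes had an unadjusted p under 0.05, with DESeq2 calling 3 members beside 8.13% of all genes and limma-voom 27 beside 51.7%. The members' median was 0.37 with 26 of 40 above 0, against 0.03 and 52.1% over all genes. The class medians were 0.87 for fibrillar, 0.06 for type IV, 1.365 for type VI and 0.295 for other collagens. Of the 10 fibrillar members 7 lay above 0 and 3 below. Those below were Col1a1, Col1a2 and Col3a1, which also lay below 0 in all 21 alternatives. The members with the smallest p were Col14a1 at -1.50 ± 0.48, Col8a1 at -1.80 ± 0.61 and Col6a5 at 3.37 ± 1.15 (edgeR adjusted p = 0.144 for all 3). For Col8a1 this was a level 3.47 times lower at night. Col1a2 had -0.71 ± 0.25, Col8a2 -0.92 ± 0.34, Col15a1 -0.89 ± 0.31 and Col18a1 -0.51 ± 0.20 (edgeR adjusted p = 0.144 each).

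Groups did not overlap for 11 of the 40 members in that comparison (27.5%), against 26.1% of all genes. Higher at night, against 10.8% of all genes, were Col5a2, Col5a3, Col6a5, Col16a1, Col20a1 and Col7a1, the anchoring fibril chain. Lower at night, against 15.2%, were Col14a1, Col8a1, Col8a2, Col18a1 and Col17a1. Cell markers moved with these values. All 18 choroid epithelium markers had a log2 fold change below 0 (median -0.81) and all 14 neuron markers had one above 0 (median 3.33). The epithelium score was 10.03 to 10.5 in J20- day and 9.15 to 9.83 in J20- night libraries. No marker of either list was called. With the epithelium score as a covariate Col8a1 had 0.16 ± 0.25 and Col8a2 0.07 ± 0.11, Col14a1 -0.25 ± 0.32 and Col18a1 -0.10 ± 0.16. The members' median was then -0.28. With the neural score in its place Col8a1 had -0.79 ± 0.62 and Col6a5 1.19 ± 0.56, and the members' median was -0.27 with 8 of 40 above 0. All 40 members remained without a call in both fits.

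In J20+ night against J20+ day, 0 of 40 members were called, beside 7 of 16065 genes (0.0436%), 5 of them higher (0.0311%) and 2 lower (0.0124%). An unadjusted p under 0.05 was found for 7 members and for 1191 of all tested genes. DESeq2 called 0 members, and limma-voom called 1 beside 1.71% of all genes. The median was -0.09 with 16 of 40 above 0, against 0.02 over all genes. Col4a2 had -0.59 ± 0.24, Col1a2 -0.56 ± 0.24 and Col4a1 -0.67 ± 0.29 (edgeR adjusted p = 0.652 for all 3). Col1a2 and Col4a2 were the 2 members without overlap, both lower at night (5% of members), against 1.19% of all genes. None was higher without overlap, against 2.42% of all genes (3.61% in either direction). Without J20+ day library 1, Col4a2 had -0.30 ± 0.20, Col1a2 -0.345 ± 0.24 and Col4a1 -0.29 ± 0.23, and the members' median was 0.15. Its endothelium score was 4.90 against 3.27 to 3.61 in the other J20+ day libraries. Col8a1 had -0.08 ± 0.59, with 1 night library low and 3 not, and 0.31 ± 0.38 without J20+ night library 2.

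In J20+ against J20- at day, 0 of 40 members were called, beside 0 of 16065 genes (0%), of which 300 had an unadjusted p under 0.05. DESeq2 called 0 members, and limma-voom called 7 beside 14.8% of all genes. The median was 0.22 with 26 of 40 above 0, against 0.03 over all genes. Col1a2 had 0.67 ± 0.24, Col23a1, a membrane collagen, 1.07 ± 0.41 and Col12a1 1.15 ± 0.45 (edgeR adjusted p = 0.989 for all 3). J20+ day library 1 held 46.6 CPM of Col23a1 and 42.3 CPM of Col12a1, against at most 11.9 and 12.1 CPM in the other 3. Without it these genes had 0.20 ± 0.19 and 0.37 ± 0.33, and the median was -0.11. Col1a2 was the one member without overlap (2.5% of members), higher in J20+, against 0.330% of all genes. None was lower without overlap, against 1.03% (1.36% in either direction). Without that library Col1a2 had 0.45 ± 0.24.

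In J20+ against J20- at night, 0 of 40 members were called, beside 1 gene (0.00622%), while 9 members and 5130 genes had an unadjusted p under 0.05. DESeq2 called Col1a2, Col8a1 and Col8a2 as higher in J20+, beside 18.5% of all genes, and limma-voom called 31 members beside 72.1%. Col1a2 had 0.82 ± 0.25 and Col8a1 1.90 ± 0.61 (edgeR adjusted p = 0.0917 for both), and Col8a2 0.94 ± 0.34 (edgeR adjusted p = 0.0993). The members' median was -0.16 with 16 of 40 above 0, against -0.01 over all genes, and no member's groups were without overlap, against 4.28% of all genes higher and 2.86% lower in J20+ (7.15% in all). The 3 J20+ night libraries other than library 2 stood above all J20- night libraries in Col8a1, Col8a2 and Col1a2. The epithelium score was 10.3 to 10.4 in those 3, 9.07 in library 2 and 9.15 to 9.83 in the J20- night libraries. With that score as a covariate Col8a1 had -0.08 ± 0.24, Col8a2 0.03 ± 0.10 and Col1a2 0.59 ± 0.26. All 14 neuron markers (median -2.86) and all 14 oligodendrocyte markers (median -3.10) had a log2 fold change below 0, and 16 of 18 choroid epithelium markers one above 0 (median 0.75). With the neural score as a covariate the members' median was 0.30, with 33 of 40 above 0.

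Of the single libraries left out, J20+ night library 2 changed the count most. Then 26 of 40 members (6 higher and 20 lower in J20+) were called, beside 9414 of 16310 genes (57.7%). The 6 higher were Col1a2, Col14a1, Col8a1, Col8a2, Col15a1 and Col18a1. Col8a1 then had 2.295 ± 0.38 (edgeR adjusted p = 0.00166) and Col1a2 0.99 ± 0.23 (edgeR adjusted p = 0.00375). Without both J20+ libraries that stand apart, 29 members were called here, beside 62.9% of all genes, and 21 in J20- night against day, beside 44.4%. In the latter Col8a1 had -1.80 ± 0.32 (edgeR adjusted p = 0.00543). This alternative was chosen after the values were seen. Library 2 had 15536346 counts, within the range of the J20- libraries, and the steepest GC trend of the table (0.43).

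For the difference of the night and day change between J20+ and J20-, 0 of 40 members were called, beside 0 of 16065 genes (0%), of which 1992 had an unadjusted p under 0.05. DESeq2 called 0 members, and limma-voom called 16 beside 33.5% of all genes. Col6a5 had -3.46 ± 1.55 and Col9a2 -1.80 ± 0.81 (edgeR adjusted p = 0.388 for both), and Col6a3 -1.82 ± 0.87 (edgeR adjusted p = 0.406). Col8a1 had 1.72 ± 0.84 (adjusted p = 0.415). The members' median was -0.24 with 13 of 40 above 0, against 0.06 over all genes. All 14 neuron markers lay below 0 (median -4.00) and all 18 choroid epithelium markers above 0 (median 0.78). With the neural score as a covariate the members' median was 0.26, with 29 of 40 above 0. Without J20+ night library 2, 6 members were called, beside 20.9% of all genes. Col8a1 (2.11 ± 0.52) and Col8a2 (1.065 ± 0.305) were higher, and Col6a5, Col2a1, Col5a1 and Col5a3 lower.

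**Figure D4:**
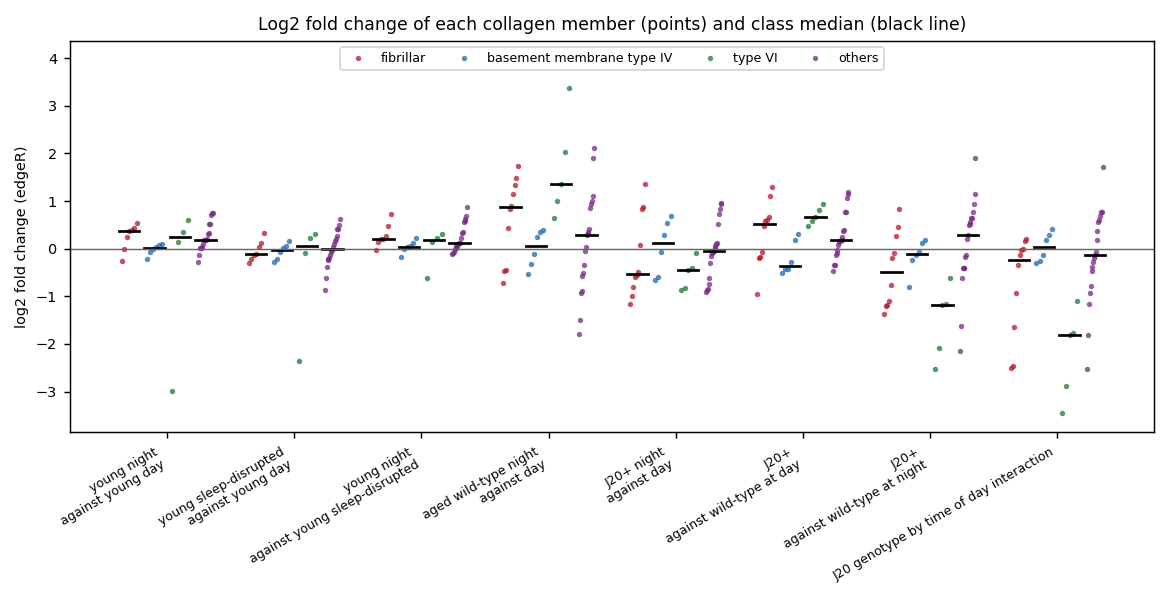
Log2 fold change from edgeR of every collagen member (points, coloured by class) in each of the 8 comparisons, with the class median as a black line. No point was called, the young comparisons lie within 0.87 of 0 apart from Col6a5, and the aged comparisons spread from -3.46 to 3.37.

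Collagens were set against scores of markers that hold no collagen gene, for 5 scores in each table, with p-values adjusted over the relations of a table. Of 200 aged relations, 73 had a permutation adjusted p under 0.05. The choroid epithelium score had the most, 6 above 0 and 23 below 0. Relations of all other genes with these scores were not counted in either table. These counts therefore cannot be read as particular to collagens. Col8a2 (r = 0.980, rho = 0.947), Col8a1 (r = 0.973, rho = 0.979) and Col14a1 (r = 0.900, rho = 0.83) were the 3 highest, and Col18a1 had r = 0.853. Their adjusted p-values ran from 0.000133 to 0.000909 in the permutation test, and r stayed at 0.813 or more without the 2 farthest libraries and at 0.770 or more on deviations from group means. Col20a1 (r = -0.95), Col16a1 (-0.92) and Col7a1 (-0.91) lay at the other end. With the neural score, Col6a5 and Col11a2 (both r = 0.940) and Col11a1 (r = 0.927) led, and Col25a1, a neuronal membrane collagen, had r = 0.919. All these relations share the scaling of the libraries, within which a larger share for some genes leaves less for others.

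**Figure D5:**
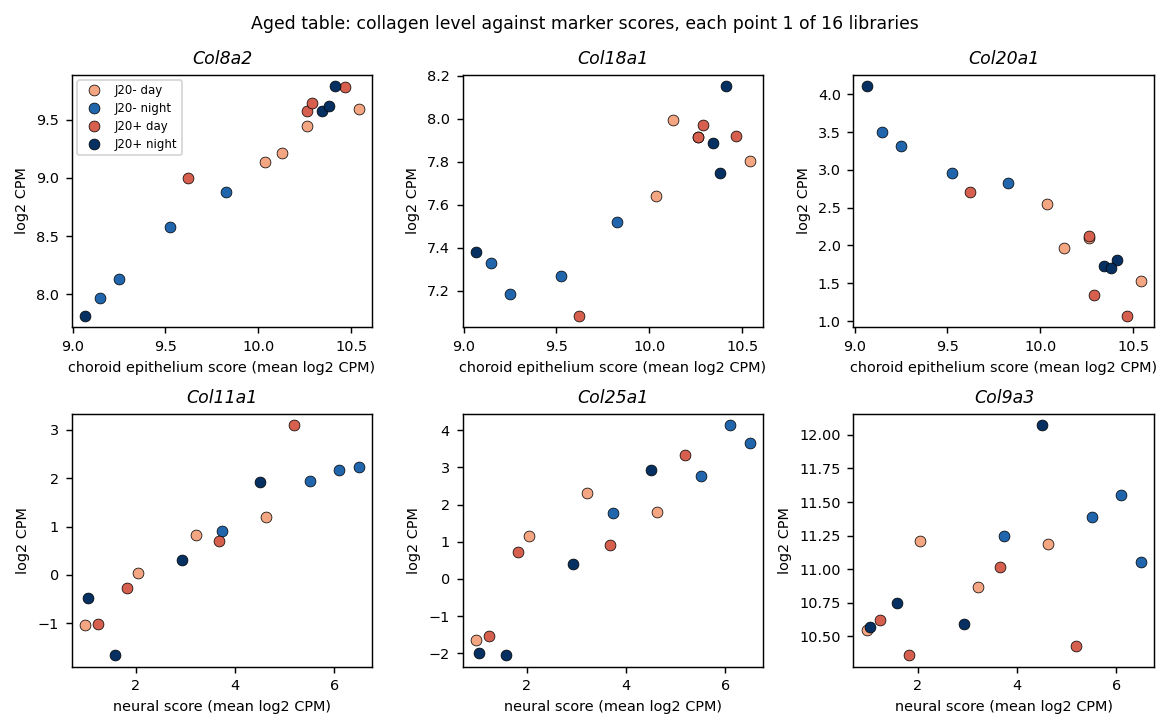
Log2 CPM of Col8a2, Col18a1 and Col20a1 against the choroid epithelium score (upper row) and of Col11a1, Col25a1 and Col9a3 against the neural score (lower row) in 16 aged libraries coloured by group. Col8a2 and Col18a1 rise and Col20a1 falls with the epithelium score, and Col11a1 and Col25a1 rise with the neural score.

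The relations with the fibroblast, mural and endothelium scores leaned on few libraries. Among aged libraries Col12a1 (r = 0.845), Col23a1 (0.795) and Col3a1 (0.791) had the highest r with the fibroblast score. Col9a2 (0.821), Col4a1 (0.722) and Col4a2 (0.662) led with the mural score, and Col4a1 (0.841), Col4a2 (0.687) and Col3a1 (0.680) with the endothelium score. None of these was under 0.05 in all of the permutation tests on all libraries, without the 2 farthest and on deviations from group means. Of 175 young relations, 35 had an adjusted p under 0.05 in the permutation test, and 1 did without the 2 farthest libraries. Of the 35, 6 were with the fibroblast, 12 with the mural, 14 with the endothelium and 3 with the neural score. Col3a1 (r = 0.919), Col12a1 (0.909) and Col9a2 (0.801) led with the fibroblast score, Col1a1 (0.918), Col4a1 (0.892) and Col4a2 (0.870) with the mural score, and Col4a2 (0.918), Col1a2 (0.916) and Col4a1 (0.906) with the endothelium score. Young day library 3, with the lowest stromal score (0.90), was 1 of the 2 libraries left out in each case. Col11a1 (0.790), Col19a1 (0.780) and Col25a1 (0.779) led with the neural score. No young collagen had an adjusted p under 0.05 with the epithelium score. The highest were Col6a5 (r = 0.524), Col14a1 (0.495) and Col8a2 (0.354).

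Genes that make, process, bind, sense and degrade collagen were counted in 7 lists. Of these lists, 2 had a called member in the edgeR test, and only in young comparisons. P4ha1, a subunit of the prolyl hydroxylase that stabilises the triple helix, was higher in young night than in young sleep-disrupted libraries (log2 fold change 0.39 ± 0.07, adjusted p = 0.0415). Npnt, an integrin ligand of basement membranes, was lower in young night than in young day (-0.57 ± 0.10, adjusted p = 0.0365) and than in sleep-disrupted libraries (-0.54 ± 0.10, adjusted p = 0.0417). Mean levels of Npnt were 31.6, 30.8 and 21.2 CPM in young day, sleep-disrupted and night libraries. Each was 1 gene of 23 tested biosynthesis genes and of 20 tested basement membrane genes. Over all tested genes, 0.267% were called in young night against young day and 0.380% in young night against young sleep-disrupted.

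No member of the 7 lists was called in an aged comparison by edgeR. In J20- night against day the median of the tested genes was -0.16 for 24 biosynthesis enzymes and chaperones and 0.11 for 13 processing and cross-linking genes. It was -0.51 for 16 collagen-binding proteoglycans and fibril partners, -0.43 for 20 laminins and other basement membrane genes, -0.61 for 12 collagen receptors and -0.49 for 17 breakdown genes, against 0.03 over all genes. The smallest p in these lists belonged to P3h2, a prolyl 3-hydroxylase of basement membrane collagens (-1.39 ± 0.34), the cross-linking enzyme Lox (-1.28 ± 0.39), the matricellular protein Thbs2 (-0.90 ± 0.28), Npnt (-1.93 ± 0.44), the fibrillar collagen receptor Ddr2 (-1.12 ± 0.33) and the gelatinase Mmp2 (-0.55 ± 0.14), all at an edgeR adjusted p of 0.144. Tgfb2 led the 21 tested regulators (-1.20 ± 0.38, adjusted p = 0.144), whose median was -0.10. In J20+ against J20- at night, the smallest p of 4 lists belonged to P3h2 (1.33 ± 0.34), the basement membrane linker Nid2 (0.85 ± 0.24), the collagen receptor Itga2 (2.16 ± 0.47) and the fibroblast protease Fap (0.74 ± 0.16). In the other lists it belonged to Tll1 (1.57 ± 0.46), Thbs2 (1.05 ± 0.28) and Ltbp3 (0.45 ± 0.15). The edgeR adjusted p was 0.0926 for Ltbp3 and 0.0917 for the others. List medians ran from -0.065 to 0.481, and 5130 of 16065 genes had an unadjusted p under 0.05 there.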

How the data were processed

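The labels' protocols describe poly(A) selection and TruSeq Stranded mRNA libraries of dissected, snap-frozen choroid plexus. Alignment with HISAT2 2.2.1 to mm10 and counting with featureCounts 2.0.1 are named in the submitters' processing notes, beside cutadapt and Picard. How strand and multiply aligned reads were treated, and the annotation, is not given in the sources used here. Both deposited tables hold unnormalised read counts by Entrez identifier, 1 for the 12 young and 1 for the 16 aged libraries. Symbols came from RefSeq GRCm38.p6 (25275 of 27179 identifiers, 93.0%).

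Genes were filtered with filterByExpr, scaled by TMM and fitted in edgeR 4.0.16 (robust glmQLFit and glmQLFTest, R 4.3.3) over all groups of a table, with Benjamini-Hochberg adjustment over all tested genes. Log2 CPM used a prior count of 2. SE is the log2 fold change over the square root of F. Correlations used 100000 permutations, with a smallest possible p of 1e-05. The edgeR steps were tested on simulated counts with a fixed spread, which checks the steps but not power or error rates at the spread of these mice. Each library is 1 mouse, and replicate numbers follow sample order and pair nothing. Precision covers the spread between mice, and depth was 14632089 to 43885898 counts.

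Members, gene lists and tests were chosen with earlier results of these data known. Named genes are those called, the 3 with the smallest p in each comparison, the 3 highest per kb in each class, the 3 nearest the threshold on each side, the 3 highest r for each score, and the type IV pairs; others named had groups without overlap or illustrate a library. Alternatives were RLE, upper-quartile and total-count scaling, DESeq2 1.42.0, limma-voom with sample quality weights (limma 3.58.1), other filters, fits on the compared groups, score covariates, GC correction (loess span 0.3) and leaving out libraries.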

Additional observations from a re-analysis of the deposited data

Results flagged for a closer look

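Of 265 member and group pairs, 32 had a library far from the other 3 of its group by Dixon's ratio, where chance flags about 1 in 20. That rate holds for independent pairs, while members of 1 library can vary together. The share over all genes was not counted, so the number cannot be read as particular to collagens. The libraries flagged most often were J20+ night library 2 (8) and J20+ day library 1 (6). Values below are CPM.

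In J20+ night library 2, Col5a1 (153.7), Col5a2 (98.3), Col9a3 (4301), Col20a1 (17.2), Col22a1 (3.84) and Col7a1 (65.7) were far above the other 3, and Col8a1 (74.3) and Col8a2 (225) far below. In J20+ day library 1, Col1a1 (64.6), Col1a2 (194.5), Col3a1 (32.9) and Col4a2 (37.4) were far above, and Col4a4 (98.3) and Col18a1 (135.5) far below. In J20+ day library 2, Col27a1 (77.7) was far above.

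Among J20- day libraries, Col6a2 was low in library 4 (3.86) and Col15a1 in library 3 (3.90). Among J20- night libraries, Col4a6 was high in library 2 (62.6), and Col11a2 (8.39) and Col6a5 (4.22) were low in library 3, the night library with the lowest neural and the highest epithelium score of that group.

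In the young table, young night library 4 was far above its group in Col5a2 (25.6) and Col12a1 (19.1) and below it in Col26a1 (1.06). Young night library 3 was above in Col5a1 (9.99) and Col4a2 (4.75). Young day library 1 was above in Col14a1 (43.7) and below in Col7a1 (0.14), and young day library 3 was below in Col13a1 (0.46) and Col23a1 (5.23). Sleep-disrupted library 1 was below in Col1a2 (12.7) and Col16a1 (0.56), and library 3 in Col17a1 (25.5).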

How the results depend on the processing

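No paired analysis was possible because the labels give no replicate numbers that mark shared animals, litters or days. The call of 0 collagens in edgeR changed with the tool and the libraries. DESeq2 called 1 in young night against day, 3 in J20- night against day and 3 in J20+ against J20- at night, beside 1.70%, 8.13% and 18.5% of all genes. limma-voom called 4, 27 and 31 in the same comparisons (18.7%, 51.7% and 72.1% of all genes), 1 in J20+ night against day (1.71%), 7 in J20+ against J20- at day (14.8%) and 16 for the interaction (33.5%). The fit on the compared groups alone called 12 of 39 in J20- night against day (26.2%). Without both J20+ libraries that stand apart, chosen after seeing the data, 21 were called there (44.4%) and 29 in J20+ against J20- at night (62.9%). Leaving out 1 library at a time gave 0 to 26 in J20+ against J20- at night, with 0 in 6 of 8 fits. The 26 were called without J20+ night library 2, beside 57.7% of all genes. For the interaction it gave 0 to 6, and the 6 were called without the same library, beside 20.9% of all genes. The cause of these differences was not tested. Of 305 pairs of a member and a comparison, 127 kept the sign of their log2 fold change in every alternative and 178 turned in at least 1. Among the 3 genes with the smallest p in each comparison, it turned in 3 cases: Col9a3 in sleep-disrupted against day was -0.12 after GC correction, and with the epithelium covariate Col8a1 was 0.16 in J20- night against day and -0.077 in J20+ against J20- at night. With that covariate the members' median in J20- night against day turned from 0.37 to -0.28. Of the marker relations, 35 in the young table became 1 without the 2 farthest libraries and 0 on deviations from group means. Of the aged relations, 73 became 44 without the 2 farthest libraries. With 4 libraries a group, low members such as Col6a5 in young night (mean 0.38 CPM) rest on few counts.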
